A study of Mus musculus with 30 samples.

Results

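The genes described here encode the proteins of the cytosolic ribosome in mouse ovary. They were chosen by symbol: an Rpl or Rps symbol followed by a number, with at most 1 letter a, x or l, or by p0, p1 or p2 for the stalk proteins, and a mean level over all 30 libraries above 0 on the log2 scale of read counts scaled to library size (log2 CPM). The pattern matched 78 symbols and 77 passed the level, 46 for the large subunit and 31 for the small subunit, of 14740 genes above that level and 18022 genes in the table. Rpl39l, a paralogue of Rpl39, was the match below the level, at a mean of -0.57 log2 CPM. All 77 genes are kept in every count below, among them Rps4l, which RefSeq lists as a transcribed pseudogene.

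The ribosome joins amino acids into protein, and each of its subunits is built from ribosomal RNA and a fixed set of proteins. Cells make these proteins in near equal numbers, and many of their messages begin with a run of pyrimidines, the 5′ terminal oligopyrimidine (TOP) tract, through which mTOR signalling controls their translation. In the ovary, ribosomes are made in quantity by growing oocytes and by dividing granulosa cells.

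The libraries were made from whole ovaries of adult CD1 females, an outbred mouse stock, dosed for 10 days with vehicle or with a plasticiser. The plasticisers were DEHP, di(2-ethylhexyl) phthalate, in daily doses of 20 and 200 µg/kg, and DiNP, diisononyl phthalate, in daily doses of 20 and 100 µg/kg. Ovaries were taken at the end of dosing (0 months) or 3 months later, which gives 10 groups of 3 libraries, called here by compound and dose (DEHP20, DEHP200, DiNP20, DiNP100). The labels do not say whether replicates came from separate mice, so p-values measure the spread between these libraries, which may be partly technical. In whole ovary, fewer cells of a type and less RNA per cell cannot be told apart.

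Many ribosomal protein genes have processed copies elsewhere in the genome, and 27 of the 77 had at least 1 copy with a row of its own in the table, 34 copy rows in all. A GENCODE transcript could be compared with the gene for 26 of the 34. The sequences below are shown because they are the only coding differences by which a read could be placed in the gene or in its copy. They are 41-base coding windows from GENCODE M21 transcripts, 5′ to 3′, with the differing base in capitals. Positions are counted from the first base of the gene's start codon. Rpl26 (chr11:68901566-68904534 in GRCm38.p6), a large subunit protein, and its transcribed pseudogene Gm15772 (chr5:3236390-3236928) differed at C177T and T288C over 435 coding bases. Rpl30 (chr15:34440505-34443276), also of the large subunit, and its transcribed pseudogene Gm12191 (chr11:49678620-49679143) differed at G96A over 345 coding bases. Rpl34 (chr3:130726827-130730398) and Rpl34-ps1 (chr6:71124589-71125001) differed at T132C and C318G over 351 coding bases.
Rpl26, bases 157 to 197: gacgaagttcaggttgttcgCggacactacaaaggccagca
Gm15772, same bases: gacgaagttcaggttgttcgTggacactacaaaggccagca
Rpl26, bases 268 to 308: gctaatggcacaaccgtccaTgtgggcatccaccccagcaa
Gm15772, same bases: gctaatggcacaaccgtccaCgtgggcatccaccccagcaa
Rpl30, bases 76 to 116: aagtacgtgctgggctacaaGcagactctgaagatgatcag
Gm12191, same bases: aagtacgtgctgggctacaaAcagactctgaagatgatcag
Rpl34, bases 112 to 152: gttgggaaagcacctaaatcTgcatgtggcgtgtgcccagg
Rpl34-ps1, same bases: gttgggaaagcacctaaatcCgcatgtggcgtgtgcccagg
Rpl34, bases 298 to 338: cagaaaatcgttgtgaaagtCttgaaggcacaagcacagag
Rpl34-ps1, same bases: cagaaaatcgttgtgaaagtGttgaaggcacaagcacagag
The share of 31-base words of the gene's coding sequence that the copy also holds was 84.7% for Rpl26, 90.2% for Rpl30 and 80.7% for Rpl34. Over the 26 copies compared, this share ran from 13.3% (Gm10548, a copy of Rpl29) to 100% (Rps27rt, a copy of Rps27). Rps27 (chr3:90212667-90213648), a zinc finger protein of the small subunit, and its retrogene Rps27rt (chr9:114982366-114982739) had no difference over 252 coding bases.

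The starts of the genes were read from RefSeq (GRCm38.p6), which gave a start window for 56 of the 77. The TOP-type tract was searched for as a C followed by at least 4 pyrimidines on the transcript's strand. It lay exactly at an annotated start in 13 of the 56 (23.2%). The shares were 2.87% of 11491 other genes above the level and 3.01% of all 27025 genes with a window. A gene with several annotated starts counted if any of them had the tract. Within 5 bases of the start it was found in 28 of the 56, against 23.8% and 21.2%. Each window shows 15 bases before the start and 15 from it, with the tract in capitals. Windows are given for some of the members with a tract exactly at the start, and for Rpl26, in which no tract lay within 5 bases. Other members described below, among them Rplp0, Rpl10 and Rps25, also had none there.
Rpl28, chr7:4792950-4792979, plus strand: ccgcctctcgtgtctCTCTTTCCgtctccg
Rpl35, chr2:39005117-39005146, minus strand: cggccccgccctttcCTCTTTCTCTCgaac
Rpl15, chr14:18270972-18271001, minus strand: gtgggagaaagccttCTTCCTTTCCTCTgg
Rpl38, chr11:114668565-114668594, plus strand: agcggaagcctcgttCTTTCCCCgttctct
Rps18, chr17:33955651-33955680, minus strand: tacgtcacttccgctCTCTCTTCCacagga
Rps6, chr4:86857353-86857382, minus strand: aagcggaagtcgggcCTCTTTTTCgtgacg
Rps27, chr3:90213634-90213663, minus strand: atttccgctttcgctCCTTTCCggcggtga
Rpl26, chr11:68901551-68901580, plus strand: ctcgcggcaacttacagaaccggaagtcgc
A missing match says only that these letters are not in this window of the annotated start.

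Before the results, 3 libraries have to be named because most members were high in them. They were DiNP100 replicate 3 at 3 months and DEHP200 replicates 2 and 3 at 0 months. Approximate depth ranged from 24850000 to 40850000 reads, with a median of 30300000, and its correlation with the mean level of the members was 0.12 over 30 libraries (Spearman's rho 0.24) and 0.35 over the 27 without these 3. The tissue label was checked with marker lists. Granulosa markers (8 of 8 in the table) summed to 10.9 to 12.3 log2 CPM across libraries and oocyte markers (9 of 9) to 7.32 to 9.37, while lymphocyte markers (6 of 6) reached at most 2.56. Among skeletal muscle markers, Acta1 and Myh4 had no row and the other 2 summed to at most 0.95. Further lists were not low in every library. Oviduct epithelium markers (4 of 4) summed to 1.16 to 7.61, adipocyte markers (4 of 4) to 4.24 to 7.45 and erythroid markers (5 of 5) to 4.48 to 8.56.

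Ribosomal protein messages were among the most abundant of the ovary. The median of the 77 mean levels was 8.65 log2 CPM, against 4.81 over all genes above the level. In all, 69 members had a mean above 7. The highest were Rplp0, the base of the stalk that recruits elongation factors, at 10.29, and Rpl4, a protein of the exit tunnel, at 10.16. The 8 members below 7 were Rps27 (1.28), Rpl34 (1.58), Rps4l (2.13), Rpl29 (3.57), Rps6 (4.66), Rpl23 (4.89), Rpl26 (5.04) and Rps27l (5.96), and 6 of these had a copy whose row was higher than their own. Together, members and copies took a median of 3.80% of summed CPM per library, with a lowest of 2.75% and a highest of 5.08%.

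Divided by transcript length, the levels lay close together. Over the 76 members with a transcript length, the median was 9.18 on the scale of log2 CPM per kilobase and 64 members lay within 1 of it. Rpl23a, a large subunit protein at the exit of the tunnel, was highest at 10.43, and Rpl34 was lowest at 2.64. The length was that of 1 principal transcript a gene, so a member with another main transcript in ovary would be misplaced on this scale. Rpl41, the shortest protein of the set with 25 amino acids, stood at 10.26, and Rpl3, a long protein next to the site of peptide bond formation, at 9.46. Members encode short proteins, with a median length of 151 amino acids against 467 over the genes above the level.

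**Figure D1:**
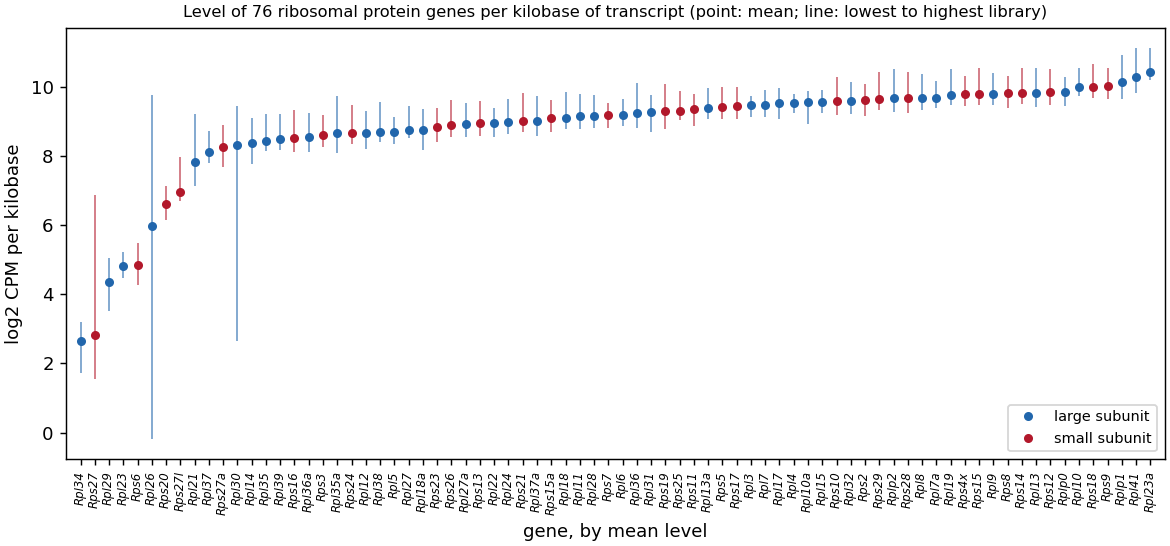
Level of 76 ribosomal protein genes in log2 CPM per kilobase of transcript, ordered by level; a point is the mean over 30 libraries and a line runs from the lowest to the highest library. Most members lie within 1 of the median of 9.18, and the lowest are mainly genes with a copy in the table.

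The members also varied together. After the mean of each group was removed, the correlation of a member with the mean of the other members over 30 libraries was above 0.5 for 71 of the 77 and above 0.9 for 44, with a median of 0.91. These points share the library and its scaling, so the correlations are a description. The pooled SD within groups had a median of 0.21 (log2) against 0.25 over all genes above the level, and 61 members were below the latter. It was smallest for Rpl7a (0.14), Rpl10 (0.15), which joins the large subunit late in its maturation, and Rpl4 (0.15). The 6 largest were those of Rpl26 (4.26), Rps27 (1.29), Rpl30 (1.27), Rps4l (0.75), Rpl21 (0.45) and Rpl35a (0.38).

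Rpl26 was either high or nearly absent, in vehicle and treated ovaries alike. At 0 months its 3 libraries stood at 7.89, 7.57 and 0.20 log2 CPM in vehicle, at 7.71, 8.74 and -1.11 in DEHP20, and at -0.33, 7.95 and 0.31 in DEHP200. They stood at 7.47, 7.53 and 8.80 in DiNP20 and at 7.92, 7.65 and 8.66 in DiNP100. At 3 months they stood at 0.92, -0.53 and 8.36 in vehicle, at 8.76, -0.11 and 7.56 in DEHP20, at 7.25, 8.83 and -0.16 in DEHP200, at -0.18, -0.23 and 7.81 in DiNP20, and at 0.08, 7.65 and 8.33 in DiNP100. Low and high libraries occurred side by side within 8 of the 10 groups. The row of Gm15772 went the opposite way: it was 8.83 in the vehicle library at 0 months where Rpl26 was 0.20, and -1.16 in the vehicle library at 3 months where Rpl26 was 8.36.

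Taken as a share of the sum of both rows, Rpl26 fell into 3 separate classes with no library between them. It held 0.109% to 0.411% of the sum in 11 libraries, 46.6% to 48.1% in 13 and 99.7% to 99.9% in 6. The sum itself was steady: its mean was 8.75 log2 CPM, its SD within groups was 0.21, and its correlation with the mean of the other members was 0.98, against 0.13 for Rpl26 alone. The classes were spread over the groups. Vehicle at 0 months had 1 low and 2 middle libraries, and vehicle at 3 months had 2 low libraries and 1 high one. How reads came to be divided between the 2 rows was not tested.

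Rpl30 showed the same kind of classes with other libraries in them. At 0 months its 3 libraries stood at 8.23, 1.85 and 8.10 in vehicle, at 7.16, 8.13 and 8.11 in DEHP20, at 8.06, 8.35 and 8.42 in DEHP200, at 6.78, 7.88 and 7.09 in DiNP20, and at 7.18, 8.0 and 7.98 in DiNP100. At 3 months they stood at 7.11, 8.02 and 7.73 in vehicle, at 7.95, 8.12 and 7.87 in DEHP20, at 6.72, 7.15 and 8.04 in DEHP200, at 8.02, 6.76 and 7.02 in DiNP20, and at 7.86, 6.91 and 8.62 in DiNP100. A single library, vehicle replicate 2 at 0 months, was far below the others, and there the row of Gm12191 was 8.01 against 3.45 and 3.21 in the other vehicle libraries of that time. Rpl30 held 1.38% of the sum with Gm12191 in that library, 43.1% to 49.2% in 10 libraries and over 90% in 19. The sum of both rows had a mean of 8.13 and an SD within groups of 0.18, against 1.27 for Rpl30 alone. A library's class for Rpl26 did not fix its class for Rpl30: of the 11 libraries with low Rpl26, 9 had Rpl30 over 90% and 2 in the middle class.

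**Figure D2:**
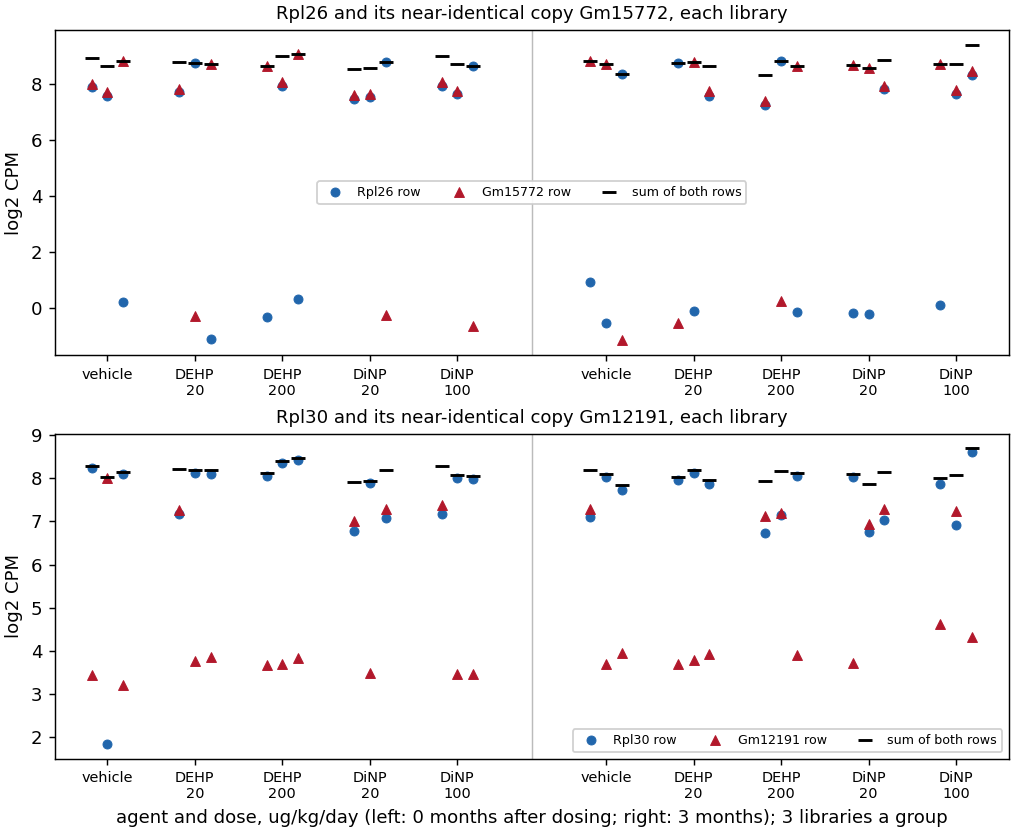
Level of Rpl26 and Rpl30, of their copies Gm15772 and Gm12191, and of the sum of gene and copy in each of the 30 libraries (log2 CPM). The gene and its copy move in opposite directions between libraries, and the sums lie between 8.32 and 9.40 for Rpl26 and between 7.83 and 8.69 for Rpl30.

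Rps27 was low in its own row. Its levels ran from 0.02 to 1.34 log2 CPM in 25 libraries and stood at 2.96 in DEHP200 replicate 3 and 5.33 in DiNP20 replicate 1 at 0 months. At 3 months they stood at 3.31 in vehicle replicate 1, 3.59 in DEHP200 replicate 3 and 3.69 in DiNP100 replicate 3. The retrogene Rps27rt, identical over the coding sequence, had 7.63 to 9.15 log2 CPM, so Rps27 held under 5% of the sum in 29 libraries and 13.7% in the other. The sum had a mean of 8.31 and an SD of 0.26. Levels of Rps27 and Rps27rt cannot be told apart from the coding bases.

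Further members had most of their sum in a copy. Rps6, the small subunit protein phosphorylated by the S6 kinases, had a mean of 4.66 in its own row and 9.43 after its copy LOC105244208 was added. Rpl34 went from 1.58 to 8.13, Rpl29 from 3.57 to 8.36 and Rpl23 from 4.89 to 8.99. The copies of Rps6 and Rpl23 were taken by gene name alone, as no transcript was found to compare their sequences. For Rpl14 and Rpl35a most of the sum was in the gene's own row, with a few libraries set apart. Rpl14 held 61.6% to 62.8% of its sum in 4 libraries and 88.0% or more in the other 26. Rpl35a held over 99% in 2 libraries, DEHP20 replicate 2 and DiNP100 replicate 1 at 3 months, and 63.0% to 86.8% in the other 28. The row of its copy Gm14279 was -2.41 and -3.34 log2 CPM in these 2 libraries, against 4.97 to 6.44 in the other 28.

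When copies were added to their gene, a step chosen after the data were seen, the SD within groups fell for 25 of the 27 members with copies. Several of these falls were slight, such as 0.2305 to 0.2303 for Rpl13 and 0.1752 to 0.1750 for Rps7. The largest were those of Rpl26, Rpl30 and Rps27. The number of members with an SD below 0.3 went from 68 to 75 of 77, and the median SD to 0.20. The 2 that stayed above 0.3 were Rps4l and Rpl21, neither of which had a copy row.

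Rps4l, listed by RefSeq as a transcribed pseudogene (chr6:148354656-148355596), behaved unlike its parent Rps4x, an X-linked small subunit gene. Because its symbol matches the pattern, Rps4l was counted as a member and not as a copy. Both genes are therefore among the 50 members without a copy row. At 0 months Rps4l stood at 2.29, 1.8 and 1.90 in vehicle, 1.73, 2.37 and 3.5 in DEHP20, 2.52, 2.86 and 3.00 in DEHP200, 2.31, 2.92 and 1.39 in DiNP20, and 2.24, 3.02 and 3.06 in DiNP100. At 3 months it stood at 3.45, 2.44 and 1.87 in vehicle, 0.99, 2.76 and 0.71 in DEHP20, 0.89, 1.83 and 2.35 in DEHP200, 0.07, 1.83 and 2.17 in DiNP20, and 1.72, 2.37 and 1.54 in DiNP100. Compared groups overlapped except for DEHP200 against vehicle at 0 months. Its correlation with the mean of the other members was -0.03, against 0.93 for Rps4x, which had a mean of 9.74 and an SD of 0.17. Rps27l, a paralogue of Rps27 known as a p53 target, had a mean of 5.96, a range of 5.70 to 6.95 and an SD of 0.25.

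Rpl21, a large subunit protein, was steady in most libraries and high in a few. It stood at 7.76, 7.48 and 7.68 in vehicle at 0 months and at 7.64, 7.38 and 7.33 in vehicle at 3 months. DEHP200 at 0 months gave 7.46, 8.52 and 9.06, and DiNP100 at 3 months 6.96, 7.57 and 8.80. The high values were in the 3 libraries named above, and also in DEHP20 replicate 2 (8.27) and DEHP200 replicate 3 (8.16) at 3 months. Each of these groups also held a library within the vehicle range or below it.

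The level of the members as a body is best read from the 50 without a copy row. Their mean was 8.76, 8.52 and 8.64 log2 CPM in the vehicle libraries at 0 months (8.64 ± 0.12, SD, n = 3) and 8.74, 8.59 and 8.32 at 3 months (8.55 ± 0.22, n = 3). In DEHP200 at 0 months it was 8.57, 8.92 and 8.95 (8.81 ± 0.21, n = 3), so that replicate 1 lay inside the vehicle range and replicates 2 and 3 above it. In DiNP100 at 3 months it was 8.53, 8.60 and 9.23 (8.79 ± 0.38, n = 3), with only replicate 3 above the vehicle range. The means of the other 6 groups lay between 8.52 and 8.68. The 77 members had their highest level of all libraries in DiNP100 replicate 3 at 3 months in 70 cases, and their lowest in vehicle replicate 3 at 3 months in 38 cases.

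**Figure D3:**
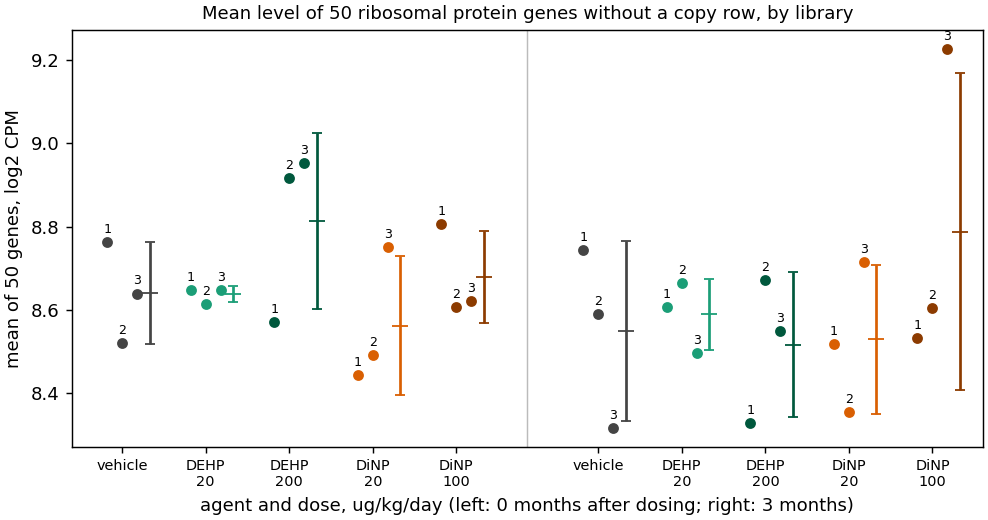
Mean log2 CPM of the 50 members without a copy row in each library, points numbered by replicate, with the mean and SD of each group of 3. DiNP100 replicate 3 at 3 months stands at 9.23, and the other libraries lie between 8.32 and 8.95.

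Set against the vehicle libraries of the same time, single libraries of 1 group went different ways. In DEHP200 at 0 months, 14, 75 and 76 members were above the vehicle mean in replicates 1, 2 and 3, with median differences of -0.07, 0.24 and 0.28. In DiNP100 at 3 months the counts were 41, 63 and 76, with median differences of 0.03, 0.06 and 0.73. In DiNP20 at 0 months they were 7, 6 and 70. In DiNP100 at 0 months they were 76, 19 and 29. Such swings between replicates are as large as the differences between group means.

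Other features moved with the high libraries. A slope of log2 level on protein length over all genes was computed in each library; it was -0.27 per doubling of length in DiNP100 replicate 3 at 3 months and -0.16 in DEHP200 replicate 2 at 0 months, with short proteins higher, and between -0.04 and 0.05 in the other 28. With that slope as a covariate, the median difference of the members from vehicle was 0.03 in place of 0.15 for DEHP200 at 0 months, and 0.07 in place of 0.26 for DiNP100 at 3 months. The correlation of the slope with the mean of the members was -0.67 over 30 libraries (Spearman's rho -0.21) and 0.02 over the 27 without the 3 high ones, so it rests on those libraries. DEHP200 replicate 3 at 0 months, the other high library, had a slope of -0.03. Of the 30 libraries, ranked from the highest, DEHP200 replicate 3 at 0 months was 2 for granulosa markers, 2 for oocyte markers and 30 for theca, luteal and endothelial markers, and it was 1 for adipocyte, smooth muscle and skeletal muscle markers. DiNP100 replicate 3 at 3 months was 18 for granulosa, 20 for oocyte, 1 for theca and 3 for luteal markers, and DEHP200 replicate 2 at 0 months was 10, 21, 2 and 11. All 6 theca, 6 luteal and 4 endothelial markers were in the table. Over 30 libraries, with group means removed, the mean of the 50 members without a copy row had a correlation of 0.55 with the summed granulosa markers, 0.56 with oocyte markers, -0.52 with endothelial markers, -0.43 with oviduct epithelium markers and -0.31 with luteal markers. For the other 8 lists it lay between -0.19 and 0.22. The slope was computed from the same levels, with the members among the genes, so the covariate fit is a description. The part of these features in the differences between groups was not tested.

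Each exposure was compared with vehicle at its own time to ask whether exposure altered ribosomal protein messages. All tests are limma fits over the 14740 genes with Benjamini-Hochberg adjustment, and all 4 treated groups of a time share the 3 vehicle libraries. Directly after dosing with DEHP200, 75 of 77 members had a higher mean than vehicle, against 49.6% of all genes, and the median difference was 0.15 (log2) against 0.00 over all genes. No member passed an adjusted p of 0.05, nor did any gene (0%). At an unadjusted p below 0.05 there was 1 member, Rpl30, against 5.02% of all genes. The median was 0.27 without DEHP200 replicate 1 and 0.08 without replicate 3. The large subunit genes had a median of 0.16 (44 of 46 above 0) and the small subunit genes of 0.14 (31 of 31).

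The stalk proteins Rplp0, Rplp1 and Rplp2, which bring elongation factors to the ribosome, differed from vehicle by 0.07 ± 0.15 (SE), 0.16 ± 0.19 and 0.21 ± 0.20 in DEHP200 at 0 months. Rpl5 and Rpl11, which carry the 5S RNA into the large subunit and bind Mdm2 when ribosome assembly is disturbed, differed by 0.05 ± 0.16 and 0.18 ± 0.16. Rpl3 differed by 0.13 ± 0.14, Rpl10 by 0.11 ± 0.13, Rpl22, a member that cells can replace by its paralogue Rpl22l1, by 0.21 ± 0.15, and Rpl38, known from its role in translation of Hox messages, by 0.12 ± 0.19. In the small subunit, Rps14 differed by 0.22 ± 0.18, Rps19, mutated in Diamond-Blackfan anaemia, by 0.08 ± 0.23, and Rps27a, made as a fusion with ubiquitin, by 0.11 ± 0.21. Rps6 differed by 0.12 ± 0.29 in its own row. Each of these differences was under 2 standard errors.

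In DEHP200 at 0 months, the member with the smallest p in either direction was a gene with a copy. Rpl30 was higher by 2.22 ± 0.97 (limma, adjusted p = 0.914). That difference rests on the vehicle library with 1.85, and with Gm12191 added it was 0.18 ± 0.15. Rpl34 was lower by 0.37 ± 0.29, and with its copy added it was higher than vehicle by 0.14 ± 0.16. With copies added, all 77 members had a positive difference, from 0.05 to 0.80, and the median stayed at 0.15. The libraries of 1 member, Rps4l, did not overlap between the groups (no-overlap share of all genes, higher in DEHP200, 3.6%).

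The other exposures at 0 months gave smaller differences in level. In DEHP20, 36 members were above vehicle (51.3% of all genes) and the median was 0.00. Rpl30 was at 1.74 ± 0.97, or 0.05 with its copy, and Rpl23 at -0.18 ± 0.16, or -0.02 with its copies. The libraries of Rpl23 were below all vehicle libraries (no-overlap share of all genes, lower, 4.8%), which held for 0 members when copies were added. In DiNP100, 53 were above vehicle (53.8% of all genes) with a median of 0.04; Rpl30 was at 1.66 ± 0.97, or -0.02 with its copy, and Rps27a at -0.14 ± 0.21.

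DiNP20 was the exposure at 0 months in which most members were below vehicle, 68 of 77, with 9 above (49.7% of all genes) and a median of -0.08. Rpl10 stood at 9.41, 9.49 and 9.60 in DiNP20 against 9.74, 9.64 and 9.61 in vehicle. Its 3 libraries did not overlap (4.67% of all genes, lower), and the difference of -0.16 ± 0.13 was close to its standard error. Rps6 was the member with no overlap in the other direction (5.06% of all genes, higher), at 4.81, 4.80 and 4.93 against 4.28, 4.23 and 4.75. That count of members was 0 when copies were added. Rps27 was at 1.66 ± 0.99, which rests on the library with 5.33, and with Rps27rt added the difference was 0.01 ± 0.21.

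At an unadjusted p below 0.05 no member passed in DEHP20, DiNP20 or DiNP100 at 0 months, where 2.37%, 2.08% and 1.75% of all genes did, and 0 members and 0 genes passed after adjustment. A limma F test for any treatment at 0 months found 0 members and 0 genes after adjustment, and 325 genes (2.2%) at an unadjusted p below 0.05. The lowest p of a member was 0.102, for Rpl21.

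At 3 months, DiNP100 had the largest median of the 8 comparisons with vehicle. In it, 75 of 77 members were above vehicle (51.5% of all genes), with a median of 0.26 against 0.01 over all genes. No member and no gene passed after adjustment. At an unadjusted p below 0.05 there were 9 members, all higher, against 9.28% of all genes in either direction. They were Rpl35a, Rpl19, Rpl18, Rpl23a, Rpl35, Rpl7a and Rpl41 of the large subunit and Rps15 and Rps25 of the small subunit. The median rests on 1 library: without DiNP100 replicate 3 it was 0.04.

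Rpl35a, a large subunit protein mutated in some cases of Diamond-Blackfan anaemia, was 8.21, 7.30 and 8.70 in DiNP100 at 3 months and 7.37, 7.21 and 7.07 in vehicle. Replicate 2 lay within the vehicle range. The difference was 0.86 ± 0.29 (limma, adjusted p = 0.518), and 0.50 ± 0.18 with Gm14279 added. Rps25, a small subunit protein used by viral internal ribosome entry sites, was 8.61, 8.56 and 9.09 against 8.54, 8.45 and 8.29, a difference of 0.33 ± 0.13 (limma, adjusted p = 0.518). Rpl41 was 9.17, 9.04 and 9.91 against 9.03, 9.02 and 8.89, and Rpl23 was 4.88, 4.97 and 5.30 against 4.84, 4.79 and 4.72. These 3, Rps25, Rpl41 and Rpl23, were the members without overlap (2.77% of all genes, higher), by small margins outside replicate 3. When copies were added 2 remained, Rps25 and Rpl41, which had no copy row.

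By role, DiNP100 at 3 months gave differences of 0.22 ± 0.15 for Rplp0, 0.24 ± 0.19 for Rplp1 and 0.30 ± 0.20 for Rplp2. Rpl3 was at 0.20 ± 0.14, Rpl5 at 0.19 ± 0.16, Rpl10 at 0.21 ± 0.13, Rpl11 at 0.31 ± 0.16, Rpl22 at 0.16 ± 0.15 and Rpl38 at 0.27 ± 0.19. In the small subunit, Rps14 was at 0.30 ± 0.18, Rps19 at 0.29 ± 0.23, Rps6 at 0.20 ± 0.29 and Rps27a at 0.10 ± 0.21. The large subunit median was 0.27 (46 of 46 above 0) and the small subunit median 0.22 (29 of 31). The member with the smallest p below vehicle was Rps4l, at -0.71 ± 0.58.

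**Figure D4:**
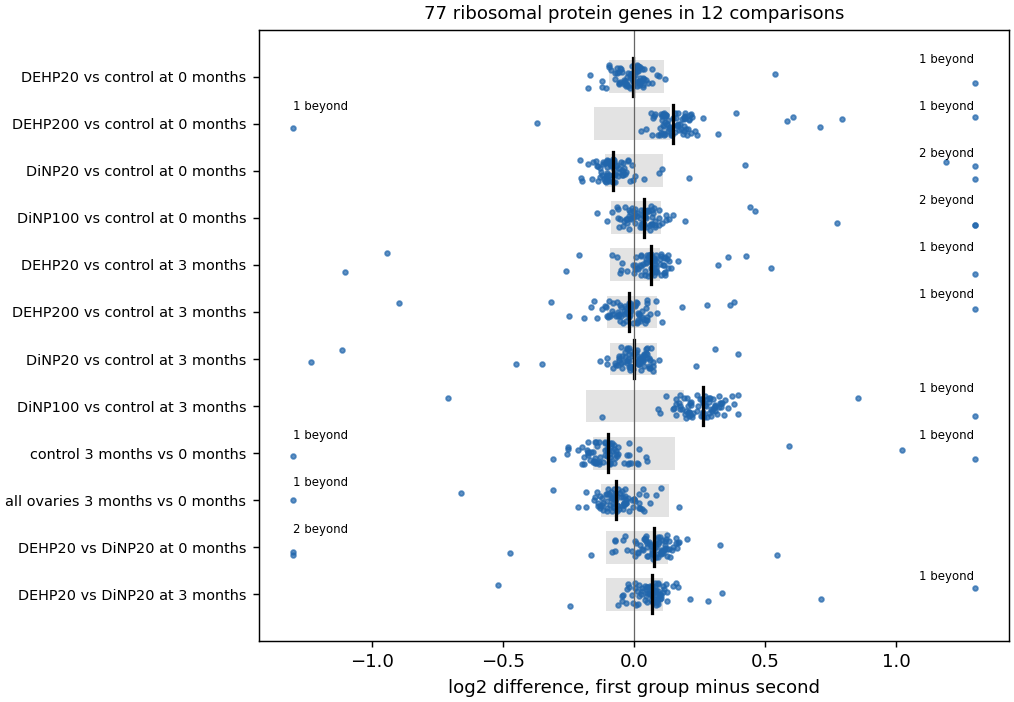
Difference (log2, first group minus second) of each of the 77 members, with the members' median as a black line and the quartiles of all genes as a gray bar. The rows are the 8 treated groups against vehicle, the comparisons of 3 with 0 months, and DEHP20 against DiNP20 at each time. Points beyond the plotted range sit at the edge with their number. Against vehicle, the medians of 0.15 in DEHP200 at 0 months and 0.26 in DiNP100 at 3 months are the largest. In the other treated groups the medians run from -0.08 (DiNP20 at 0 months) to 0.07 (DEHP20 at 3 months).

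The remaining exposures at 3 months differed little from vehicle. In DEHP20, 66 members were above vehicle (51.1% of all genes), with a median of 0.07. Rpl35a was at 0.52 ± 0.29, or 0.20 with its copy, and Rps4l at -1.10 ± 0.58. Rpl41 had no overlap (3.09% of all genes, higher). In DEHP200, 30 were above (47.1% of all genes), with a median of -0.02; Rpl29 was at 0.38 ± 0.26, or -0.02 with its copies, and Rps4l at -0.90 ± 0.58. In DiNP20, 39 were above (50.3% of all genes), with a median of 0.00. Rps6 was at 0.40 ± 0.29, or 0.05 with its copy. Rps27 had no overlap (3.09% of all genes, lower), which held for 0 members when copies were added.

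Rps4l was the member furthest below vehicle by p in all 4 exposures at 3 months, which share their vehicle libraries. In DiNP20 it was at -1.23 ± 0.58 (limma, adjusted p = 1.00), the only member with an unadjusted p below 0.05 there, against 1.52% of all genes. DEHP20 and DEHP200 at 3 months had none, against 1.68% and 1.44% of all genes. The vehicle mean was raised by replicate 1 (3.45). Without it the differences were -0.67 for DEHP20, -0.46 for DEHP200, -0.80 for DiNP20 and -0.27 for DiNP100. At 0 months Rps4l was above vehicle in all 4 exposures, by 0.21 to 0.80. The limma F test for any treatment at 3 months and the one for a difference of treatment effects between times found 0 members and 0 genes after adjustment. At an unadjusted p below 0.05 they found 588 genes (3.99%) and 389 genes (2.64%) and no member. The lowest p of a member was 0.0618 for Rpl35a in the first and 0.153 for Rpl41 in the second.

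More genes passed between the times than in any exposure, with more libraries on each side. In a comparison of all 15 libraries at 3 months with all 15 at 0 months, 2986 genes (20.3%) passed an adjusted p of 0.05 and no member did. That count of members was 4 after quantile normalization, 5 with the slope on protein length as a covariate, 2 with array weights, 3 at an adjusted p of 0.1 and 7 without DiNP100 replicate 3 at 3 months. The median of the members was -0.07 and 14 of 77 were above 0 (50.7% of all genes). At an unadjusted p below 0.05 there were 5 members, all lower at 3 months, against 35.1% of all genes: Rpl29, Rps4l, Rpl31, Rps27a and Rpl10a. Rpl29 had the lowest adjusted p, 0.0637, with a difference of -0.31 ± 0.12, or -0.07 ± 0.06 with its copies. Rps4l was at -0.66 ± 0.26 (adjusted p = 0.0737). Rpl23a, the member with the smallest p on the other side, was at 0.06 ± 0.07, and at -0.01 after quantile normalization.

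Among vehicle ovaries alone, 69 of 77 members were lower at 3 months and 8 higher (49.5% of all genes), with a median of -0.10. No member passed after adjustment, where 1 gene did (0.00678%), and none had an unadjusted p below 0.05, where 7.98% of all genes did. Rpl30 was at 1.56 ± 0.97, which again rests on the 0 month library with 1.85 and was -0.11 with its copy added. Rps15a was at -0.25 ± 0.17. The median was 0.01 without vehicle replicate 3 at 3 months.

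DEHP and DiNP share a dose of 20 µg/kg/day, so these 2 phthalate diesters, which differ in their alcohol side chains, were compared at that dose at both times, 2 pairs. At 0 months 65 members were higher in DEHP20 (51.2% of all genes), with a median of 0.08, and at 3 months 65 (50.1%), with a median of 0.07. No member passed after adjustment and none had an unadjusted p below 0.05, where 2.05% and 2.9% of all genes did. Rpl17 was at 0.17 ± 0.16 and Rps6 at -0.47 ± 0.29 at 0 months, the latter 0.09 with its copy. At 3 months Rps2 was at 0.21 ± 0.17 and Rpl34 at -0.52 ± 0.29, or 0.05 with its copy. Rpl10 (4.84% of all genes, higher in DEHP20) and Rps6 (4.72%, lower) did not overlap at 0 months, and Rpl34 (4.12%, lower) at 3 months. When copies were added, 0 members lay lower without overlap at either time. The median standard error of a member was 0.17, so differences of the size of these medians were not detectable for single members. The higher doses, 200 and 100 µg/kg/day, differ and were not set against each other.

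Ribosomal protein genes outside the symbol pattern had similar levels. Rpsa, which also binds laminin, had a mean of 10.05 log2 CPM, Rps3a1 9.88, Rack1, a scaffold on the small subunit, 9.90, and Fau, made as a fusion with a ubiquitin-like protein, 8.19. On the per-kilobase scale they stood at 9.37, 9.92, 9.37 and 9.28. In DEHP200 at 0 months they differed from vehicle by 0.09 ± 0.17 for Rpsa, 0.13 ± 0.16 for Rps3a1, 0.05 ± 0.16 for Rack1 and 0.25 ± 0.17 for Fau. In DiNP100 at 3 months the differences were 0.35 ± 0.17, 0.27 ± 0.16, 0.15 ± 0.16 and 0.34 ± 0.17, in the same order. The paralogues Rpl22l1, Rpl36al and Rpl7l1 were lower per kilobase, at 7.09, 7.89 and 6.15.

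The 10 other genes most alike in their variation within groups, by correlation with the mean of the 50 members without copy rows over 30 libraries, were Rps3a1 (0.96), Eef1b2 (0.96), Fau (0.94), Rpsa (0.93), Snrpd1 (0.93), Snrpd3 (0.93), Naca (0.92), Gfer (0.92), Eif3f (0.92) and Lsm3 (0.91). Without the 3 high libraries the correlations were 0.89 to 0.96 over 27. Eef1b2 and Eif3f are translation factors, Naca binds new proteins at the ribosome, Snrpd1, Snrpd3 and Lsm3 belong to small nuclear ribonucleoproteins, and Gfer is a sulfhydryl oxidase of the mitochondrion.

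Lists of related genes were followed beside the members, with counts and medians only. The list of translation factors and other TOP messages holds 5 ribosomal protein genes outside the symbol pattern among its 26. For DEHP200 at 0 months, where 49.6% of all genes were above vehicle, 20 of these 26 were (median 0.06), as were 69 of 78 mitochondrial ribosomal protein genes (median 0.16) and 41 of 42 genes for small subunits of oxidative phosphorylation (median 0.22). Of ribosome biogenesis genes 28 of 44 were above (median 0.06), of mTOR and S6 kinase genes 8 of 25 (median -0.03), and of MYC and ribosomal stress genes 1 of 11 (median -0.08). No gene of these lists passed after adjustment. The genes with the smallest p values included Mrpl48 (0.28 ± 0.13), the ribosome biogenesis factor Utp20 (-0.40 ± 0.16), the kinase Pdpk1 (-0.38 ± 0.16) and the cell cycle inhibitor Cdkn1a (-1.55 ± 0.74).

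For DiNP100 at 3 months, where 51.5% of all genes were above vehicle, 21 of 26 TOP messages were (median 0.15), 77 of 78 mitochondrial ribosomal protein genes (median 0.29), 42 of 42 oxidative phosphorylation genes (median 0.39) and 31 of 44 biogenesis genes (median 0.11), against 14 of 25 mTOR genes (median 0.04) and 3 of 11 MYC and stress genes (median -0.04). None passed after adjustment. Unadjusted p values were below 0.05 for 9.28% of all genes, for 19 of 78 mitochondrial ribosomal protein genes, with Mrps10 at 0.39 ± 0.13, and for 7 of 42 oxidative phosphorylation genes, with Uqcrh at 0.47 ± 0.16. Eef1d was at 0.36 ± 0.14 and Eif3k at 0.40 ± 0.16. Rictor, the defining subunit of mTOR complex 2, was at -0.64 ± 0.24.

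Over 30 libraries with group means removed, the mean level of a list had a correlation with the mean of the members of 0.93 for TOP messages (0.88 without their 5 ribosomal protein genes), 0.77 for biogenesis genes, 0.60 for mitochondrial ribosomal protein genes, 0.45 for oxidative phosphorylation, 0.18 for MYC and stress genes and -0.50 for mTOR genes. In the comparison of all ovaries by time, where 20.3% of all genes passed after adjustment, 2 of 26 TOP messages, 3 of 25 mTOR genes, 1 of 44 biogenesis genes, 1 of 78 mitochondrial ribosomal protein genes, 1 of 42 oxidative phosphorylation genes and 1 of 11 MYC and stress genes did.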

How the data were processed

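The deposited table holds 1 log2 CPM value per gene and library; per the submitters' processing notes, FastQC 0.11.8, Salmon 0.11.3, edgeR and R 3.5.2 were used with GRCm38.p6, and the authors' prior count for the log2 values is not given in the sources used here. Per the labels' protocols, libraries were stranded mRNA libraries read from 1 end. Whole reads could not be recovered from the log2 CPM values, so no count test was run; depth was estimated from the steps between low values and is approximate. Salmon divides reads that match several transcripts by estimation, so a gene and a near-identical copy can share reads. How far they did so here was not tested.

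The members and lists were chosen with earlier results of these data known. Genes kept by the same level (over 0 on that scale on average) were fitted in limma 3.58.1 (R 4.3.3) with 1 mean per group over 30 libraries (20 residual degrees of freedom), a mean-dependent prior variance, and Benjamini-Hochberg adjustment over 14740 genes. The script was tested on simulated data. Copies are rows outside the symbol pattern whose gene name is that of a member. Replicate numbers were not used to pair libraries in the main fit. Of 60 same-number pairs, 19 had a correlation above 0.1, with a lowest of -0.45, a median of -0.06 and a highest of 0.39. Pairs of unlike numbers were not computed, so whether the numbers pair libraries was not tested. Named members were those with the smallest p in each direction of each comparison, the 6 largest and 3 smallest SDs, paralogues with their parents, and a panel by role. Other processing choices were tried as described in the closing section. Python 3.11.15 with pandas 2.3.3 was used for descriptions, and transcripts were those of GENCODE M21.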

Additional observations from a re-analysis of the deposited data

How the results depend on the processing

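Each result was recomputed under other choices. A named member counted as the same if its direction and side of the threshold held, and a median if it shifted by under 0.21 (log2). Every median except that of DiNP100 at 3 months (0.26) was smaller in size than this tolerance. Such a median could change sign and still count as the same. A count of genes or members had to stay of similar size. All 66 results stayed the same with the replicate block, with members passing at 0 in every comparison. Group differences cannot change under that block, because every group holds the same replicate numbers. All 66 also stayed the same with median centring, no filter or a pseudocount of 1 CPM. They did so too with a robust prior variance, or a prior variance without dependence on the mean. Under median centring, members above 0 went from 39 to 38 of 77 for DiNP20 against vehicle at 3 months, so the sign of that median turned. With array weights, whose estimation stopped before its tolerance, members passing were 2 for DEHP20, 1 for DEHP200, 1 for DiNP20 and 2 for any treatment at 3 months, 3 for vehicle over time and 2 for all ovaries over time, and genes passing were 1781, 1481, 788, 2105, 3567 and 4490, with 3 for DEHP20 against DiNP20 at 3 months. For all ovaries over time, members passing were 4 after quantile normalization, 3 at an adjusted p of 0.1 and 5 with the length slope as a covariate, against 0; Rpl23a turned to -0.013 under quantile normalization. For vehicle over time, genes passing were 0 with a minimum of 2 log2 CPM, 4 at an adjusted p of 0.1, 6 with the length slope and 0 with the compared groups alone, against 1. Fitted on the compared groups alone, 1 gene passed for DEHP20, DEHP200 and DiNP100 at 0 months. With DEHP200 replicate 1 alone, the median of the members at 0 months was -0.073. The cause of these changes was not tested. Quantile normalization moved the members above 0 from 36 to 51 for DEHP20 at 0 months, from 30 to 43 for DEHP200, from 39 to 22 for DiNP20 and from 65 to 73 for DEHP20 against DiNP20 at 3 months, and from 14 to 3 for all ovaries over time.

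The difference of Rpl30 ranged with 1 library left out from -0.366 to 2.82 for DEHP20 at 0 months, from -0.441 to 2.75 for DiNP100 at 0 months and from -0.543 to 2.65 for vehicle over time, each lowest without vehicle replicate 2 and highest without vehicle replicate 1 at 0 months. With copies added, signs turned for Rpl34 in DEHP200 at 0 months (0.139), Rpl30 in DiNP100 at 0 months (-0.020) and in vehicle over time (-0.111), Rpl29 in DEHP200 at 3 months (-0.024), Rps6 in DEHP20 against DiNP20 at 0 months (0.089) and Rpl34 in the same contrast at 3 months (0.049). Leaving out 1 library at a time, all ovaries over time had 2147 to 4389 genes and 0 to 7 members passing (7 without DiNP100 replicate 3 at 3 months) and a median of -0.118 to -0.036; vehicle over time had 1 to 3 genes and a median of -0.202 to 0.012. The 4 exposures at 0 months had 0 to 1 gene (1 without vehicle replicate 3), with medians of -0.069 to 0.065 (DEHP20), 0.085 to 0.267 (DEHP200), -0.190 to -0.016 (DiNP20) and -0.040 to 0.097 (DiNP100). DiNP100 at 3 months had 0 to 633 genes and 0 to 1 member, Rpl35a at 1.24 (limma adjusted p = 0.0432) without replicate 2, and a median of 0.036 to 0.397, lowest without replicate 3. The other medians at 3 months ranged from -0.053 to 0.160 (DEHP20), -0.133 to 0.075 (DEHP200) and -0.121 to 0.101 (DiNP20), and those of DEHP20 against DiNP20 from 0.016 to 0.177 at 0 months and -0.026 to 0.161 at 3 months.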
